A study of Mus musculus with 2 samples.

Results

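The genes described here are 33 members of the amino acid response that runs through the transcription factor ATF4, including 12 cytosolic tRNA synthetases. They were chosen by name and found on the array through the gene name of each probe, or through its RefSeq accession where the name is older, as for Mars, now Mars1. The array held 43 probes for them, 41 of which were well above background. In all, 32 of the 33 genes were tested, among 20923 genes of the whole array. The remaining one, Slc7a11, the cystine transporter, had 1 probe, which was not well above background in any channel.

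The samples were ureters dissected from NMRI mouse embryos at E13.5. Mutant pools carried Pax2-cre/+ with Fgfr2(fl/fl), so that the fibroblast growth factor receptor gene Fgfr2 can be deleted where the Cre acts. The genotype of both pools leaves Fgfr1 open as Fgfr1(fl/?), and mutant ureters with and without floxed Fgfr1 were mixed. Control pools were Fgfr1(fl/?);Fgfr2(fl/?) without the Cre. The labels say neither which cells express the Cre nor how many embryos a pool held. Each of the 2 two-colour arrays hybridised 1 mutant and 1 control pool together. The first array carried RNA of female embryos, with Cy5 on the mutant side, and the second that of male embryos, with Cy3 on the mutant side; they are called array 1 and array 2. Sex and dye orientation therefore cannot be told apart. The comparison asks which transcripts of this response differ in the ureter of Fgfr2 mutants.

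Cells short of an amino acid, or under other stresses that phosphorylate the initiation factor eIF2, slow general translation while the Atf4 mRNA is translated more. ATF4 then activates genes that make, import and charge amino acids, and a set of feedback genes. Much of this control starts with translation of an existing mRNA, so the level of Atf4 mRNA is only part of it. In growing embryonic tissue the same genes also serve protein and nucleotide synthesis. ATF4 and its partners bind the CARE, a composite site for CCAAT/enhancer binding proteins and ATF factors.

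The CARE was looked for in the 250 bases before the start of each gene in the RefSeq promoters of GRCm38.p6, as TGATGNAA on either strand, which reads TTNCATCA where the site lies on the strand opposite to the gene. Of the 33 members, 26 were in the table and 8 of these held a match, which is 30.8%, beside 3.91% of all 27025 genes in it. A match is a description of the letters, not a shown binding site. The stretches of these 8 genes are printed because the site is the one through which ATF4 is known to act; the other 18 members in the table held no match. Each is written 5′ to 3′ on the strand of the gene, with the match in capitals.
Asns, chr6:7693210-7693248, minus strand: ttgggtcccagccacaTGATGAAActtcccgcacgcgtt
Chac1, chr2:119351033-119351072, plus strand: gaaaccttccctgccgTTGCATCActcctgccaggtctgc
Slc7a11, chr3:50443637-50443695, minus strand: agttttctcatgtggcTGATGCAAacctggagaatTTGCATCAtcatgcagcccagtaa
Vldlr, chr19:27216804-27216843, plus strand: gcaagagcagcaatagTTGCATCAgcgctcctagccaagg
Pck2, chr14:55540147-55540186, plus strand: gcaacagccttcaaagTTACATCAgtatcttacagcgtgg
Aars, chr8:111033714-111033753, plus strand: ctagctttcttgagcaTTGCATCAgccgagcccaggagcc
Gars, chr6:55037955-55037994, plus strand: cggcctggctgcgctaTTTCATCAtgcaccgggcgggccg
Tars, chr15:11399659-11399689, minus strand: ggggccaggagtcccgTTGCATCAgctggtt
Slc7a11 held 2 matches, 58 and 39 bases before its start, and the other 7 genes held 1 each, from 192 bases before the start in Vldlr to 7 bases in Tars. By role, the match was found in 3 of 8 synthetases of the table, in 1 of 6 regulators and in 0 of 5 serine and one-carbon genes.

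Across the whole array, 67.9% to 77.0% of probes were well above background in a channel, and no spot was saturated. The 2 probes of Fgfr2 had log2 ratios of 0.27 and 0.06, and of 0.08 and 0.09, on array 1 and array 2; the position of the floxed segment was not known here, so these probes may check nothing. Xist, the transcript that coats an inactivated X, had a level of 12.42 in either channel of array 1, whereas on the array labelled male it had 8.39 (mutant) and 9.996 (control). The Y-linked Ddx3y had 11.88 and 11.57 on that array, and 8.15 and 8.44 on the array labelled female, where the lowest levels counted as well above background were 6.433 and 6.404. The channels of array 2 thus differed in Xist, with a log2 ratio of -1.602, although both are labelled male, and the sexes named below are those of the labels. Of 12 ureteric mesenchyme markers all were tested, and of 12 epithelial ones all but Upk2, which was not well above background. Ratios are given as log2 of mutant over control at the brightest tested probe of a gene, for array 1 and then array 2, or as mean ± SD (n = 2 arrays). Levels are normalised log2 levels of 1 probe in 1 channel, and probe positions are those of the array design on mm9. Since whole ureters were used, fewer cells of a type and less RNA per cell cannot be told apart.

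No member passed the test, and the members did not move one way. In limma, 0 of 32 members had an adjusted p under 0.05, where 0.0287% of all genes did, and every member had a limma adjusted p of 0.99997. At an unadjusted p under 0.05 there were 2 members, Atf5 and Nars, where 4.04% of all genes were; both were higher in the mutant, as were 2.61% of all genes. On both arrays 5 members lay above 0, beside 22.1% of all genes, and 6 lay below 0, beside 21.4%. The other 21 had opposite signs on the arrays, beside 56.5% of all genes. The median over the 32 members was -0.052 (-0.045 on array 1 and 0.050 on array 2), and the median over all genes was 0.0044. Most members were near 0, and 21 of 32 were under 0.3 in size on both arrays, beside 66.6% of all genes. No member was 1.5-fold changed on both arrays, which 0.296% of all genes were as higher and 0.0956% as lower.

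**Figure D1:**
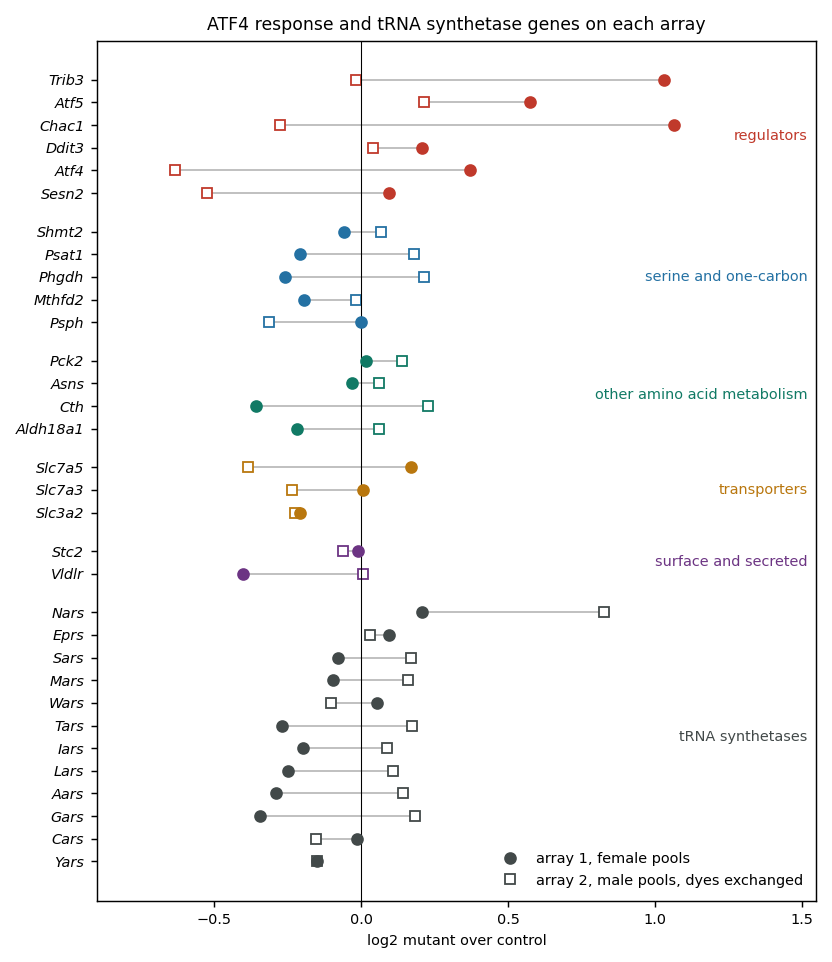
The log2 ratio of mutant over control (x axis) is plotted for each of the 32 tested members, ordered within its role by the mean of the arrays, with filled circles for array 1 and open squares for array 2. The 6 regulators lie above 0 on array 1 (5 of 6 with median centring), while 4 of them lie below 0 on array 2, and most other genes stay within 0.3 of 0.

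The split of higher and lower members depended on how the arrays were centred. With median centring in place of loess, 3 members lay above and 20 below 0 on both arrays, and their median was -0.18. Under that centring 15.5% of all genes lay above and 38.1% below 0 on both arrays, and the median of all genes was -0.084. Directions of small ratios are those after loess.

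The transcription factors and feedback genes of the response had the widest spread between arrays, a median SD of 0.57 beside 0.21 over all members. The group had medians of 0.47 and -0.15, and all 6 lay above 0 on array 1, beside 49.9% of all genes, and 2 of 6 on array 2, beside 50.8%. With median centring these counts were 5 and 1, with medians of 0.48 and -0.18. Of all 32 members, 2 were at least 1.5-fold changed on array 1, Trib3 and Chac1, beside 1.91% of all genes. On array 2 another 2 were, Atf4 and Nars, beside 6.88%.

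Atf4 itself went opposite ways on the arrays. On array 1 its probe, on chromosome 15 from 80087902 to 80087961, read 16.24 for mutant against 15.87 for control RNA, and on array 2 15.56 against 16.19. The mutant channel was the higher one on array 1 and the lowest of the 4 on array 2. The ratios were 0.37 and -0.63, a mean of -0.13 ± 0.71. The 4 spots of the probe ranged from 0.25 to 0.59 on array 1 and from -0.91 to -0.49 on array 2, so the arrays differed by more than the spots of either. The dimmer Atf4 probe, from 80086639 to 80086698, gave 0.14 and -0.21, the same signs at a smaller size.

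Atf5, a related factor that is translated under the same control, was the regulator with the same direction and the lowest p. Mutant against control, it read 13.06 and 12.48 on array 1, then 12.88 and 12.67 on array 2. Both mutant levels lay above both control levels. The ratios were 0.58 and 0.21, a mean of 0.39 ± 0.26, or 1.31-fold. With median centring they were 0.45 and 0.020, a mean of 0.23, with an unadjusted limma p of 0.23. The probe covers bases 52067627 to 52067686 of chromosome 7. Ddit3, which encodes the stress factor CHOP, had ratios of 0.21 and 0.040, a mean of 0.12 ± 0.12. Its gene overlaps Mars1 in the RefSeq gene table, but their probes, on chromosome 10 from 126732518 to 126732821 and from 126733940 to 126733999, do not overlap.

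Trib3 and Chac1, both activated by ATF4 and CHOP, had their high ratios on array 1. Trib3, a pseudokinase that dampens the response, read 10.61 against a control of 9.58 on array 1, and 9.64 against 9.66 on array 2. One mutant level was thus high, and the other 3 levels were close together. The ratios were 1.03 and -0.018 (mean 0.51 ± 0.74), and only 52 of 20923 genes had so high a ratio on array 1. Its probe is on chromosome 2 from 152163161 to 152163220. Chac1, an enzyme that degrades glutathione and whose promoter holds a CARE match, read 8.97 against 7.90 on array 1 and 8.01 against 8.29 on array 2. Its ratios were 1.06, or 2.09-fold, and -0.28 (mean 0.39 ± 0.95). The 4 spots of its probe, on chromosome 2 from 119179990 to 119180049, ranged from 0.94 to 1.19 and from -0.42 to -0.09. Sesn2, a leucine sensor that restrains mTORC1, was at 0.093 and -0.52, a mean of -0.22 ± 0.44.

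**Figure D2:**
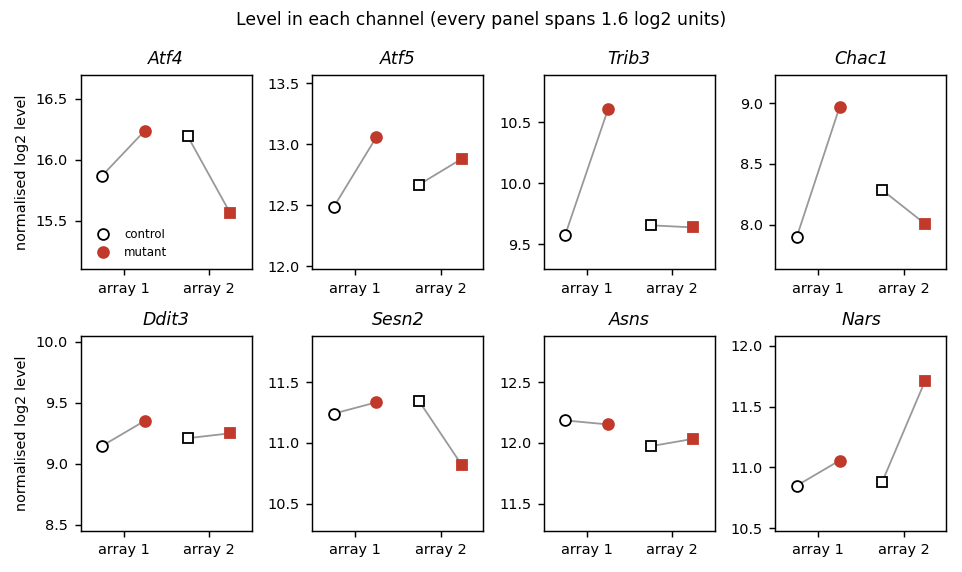
Normalised log2 levels (y axis) are shown per channel for 8 members, with control as open and mutant as red symbols, circles for array 1 and squares for array 2, each line joining the channels of 1 array. Trib3 has 1 high level, 10.61 in the mutant channel of array 1, and the lines of Atf4 and Chac1 run up on array 1 and down on array 2.

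The summed levels of liver, erythroid and leukocyte markers differed from control by unlike amounts on the 2 arrays. The summed level of 6 liver markers was 2.20 higher in the mutant channel on array 1 and 0.79 on array 2, and that of 10 erythroid markers 1.44 and 0.37 higher. The liver sum ran from 11.39 to 12.45 in the mutant and from 10.25 to 10.60 in the control channels, and the erythroid sum from 19.38 to 19.49 and from 18.06 to 19.01. All 6 liver markers and 8 of 10 erythroid markers were above 0 on both arrays (4 of 10 erythroid ones with median centring). After loess, which the marker counts below also use, 22.1% of all genes lay above and 21.4% below 0 on both arrays. The leukocyte sum was 0.27 and 0.80 higher, from 15.08 to 16.04 in the mutant and from 14.81 to 15.24 in the control channels. Of its 10 markers, 8 were above 0 on both arrays. Itgam, the brightest of them, was at -0.030 and 0.75, while the medians over the 10 markers were 0.60 and 0.74. The largest ratios were those of S100a8, at 1.98 and 2.07, and S100a9, at 1.98 and 2.43, both with a limma adjusted p of 0.014. Skeletal muscle markers were above 0 on both arrays in 6 of 7 cases, with sums 0.21 and 0.042 higher, and neuron and glia markers in 8 of 8, with sums 0.14 and 0.19 higher. Of 12 ureteric mesenchyme markers, 8 were below and 2 above 0 on both arrays, and their sum differed by -0.11 and -0.47. The 2 above were Acta2, at 0.99 and 0.17, and Tagln, at 0.54 and 0.077. Of 11 tested epithelial markers, 5 were below and 3 above 0 on both arrays, and their sum differed by -0.20 and -0.36. The 3 above were Upk3a, at 1.45 and 1.24, Upk1b, at 0.49 and 0.54, and Krt5, at 0.080 and 0.048. The part of these cells in the ratios of Trib3, Chac1, Atf5 and other members was not tested.

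The difference between the arrays was fitted over all genes with array 2 left unturned, which compares Cy5 with Cy3 and holds sex and dye together. No gene passed in limma (0% of 20923, with 4.71% at an unadjusted p under 0.05). Among the 32 members 2 had an unadjusted p under 0.05, Atf4 and Chac1, both with a limma adjusted p of 0.747. Between the arrays, Pearson's r was -0.25 over the 32 members and -0.024 over all genes, and Spearman's rho was -0.44 and -0.13. These describe genes that share the same 2 arrays and are not independent.

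**Figure D3:**
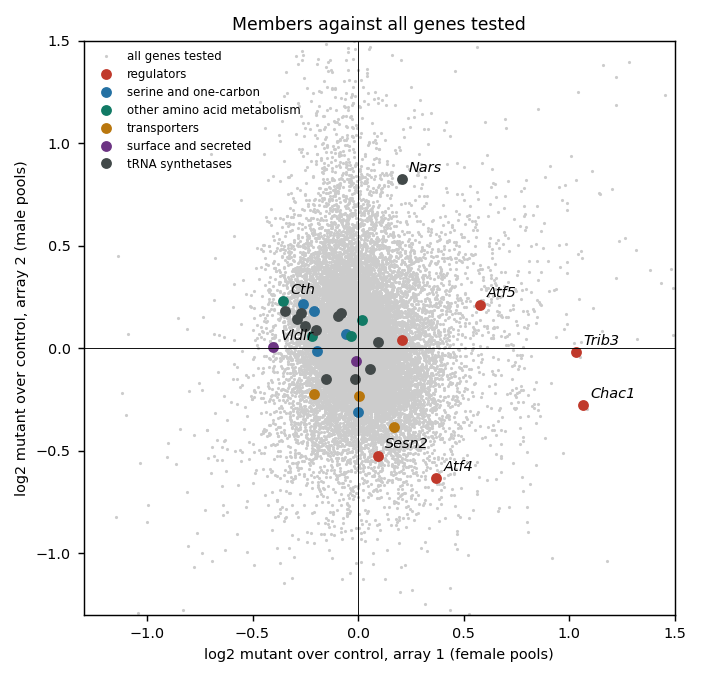
Each point is a gene, with its log2 mutant over control ratio on array 1 (x axis) and array 2 (y axis), all tested genes in grey and the members coloured by role. Trib3 and Chac1 lie far to the right near or below 0 on array 2, Nars lies at the top, and 60 genes fall outside the plotted range of -1.3 to 1.5.

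The enzymes of serine and one-carbon synthesis differed little. Phgdh, Psat1 and Psph catalyse the successive steps from a glycolytic intermediate to serine. Phgdh was at -0.26 and 0.22 (mean -0.022 ± 0.34), Psat1 at -0.21 and 0.18 (mean -0.014 ± 0.27), and Psph at -4.3e-05 and -0.31 (mean -0.16 ± 0.22). The probes of these genes were not in full accord. The second Phgdh probe was at -0.40 and 0.14 and the third at -0.12 and -0.16, the second Psat1 probe at -0.082 and 0.20, and the second Psph probe at -0.37 and 0.24. Shmt2 and Mthfd2, which act in mitochondrial one-carbon metabolism, were at -0.058 and 0.067, and at -0.20 and -0.016. As a group these 5 genes had medians of -0.20 on array 1 and 0.067 on array 2. None lay above 0 on array 1, beside 49.9% of all genes. With median centring all 5 lay below 0 on both arrays, beside the share of all genes given above for that centring. The medians were then -0.30 and -0.063.

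Asns, which makes asparagine and is a classical target through its CARE, was among the members nearest 0. Mutant RNA read 12.15 against 12.18 for control RNA on array 1, and 12.03 against 11.97 on array 2. The channels of an array differed less than the arrays did. The ratios were -0.033 and 0.060 (mean 0.014 ± 0.066), from a probe on chromosome 6 between 7625171 and 7625228. Cth, which makes cysteine from cystathionine, was at -0.36 and 0.23, and its dimmer probe gave -0.32 and 0.36. Aldh18a1, the first enzyme of proline synthesis, was at -0.22 and 0.059, and Pck2, the mitochondrial phosphoenolpyruvate carboxykinase, at 0.017 and 0.14.

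Among the transporters, Slc3a2 had nearly the same value on both arrays. It encodes the heavy chain that carries several amino acid exchangers to the cell surface. Mutant RNA read 13.11 on either array, against 13.32 and 13.33 for control RNA. Both mutant levels lay below both control levels. The mean was -0.22 ± 0.011. With median centring the ratios were -0.31 and -0.44, a mean of -0.38, with a limma adjusted p of 0.860. Single spots of its probe, on chromosome 19 from 8782189 to 8782248, ranged from -0.36 to 0.0053 and from -0.46 to 0.0045. Its light chain partner Slc7a5, an exchanger of large neutral amino acids, was at 0.17 and -0.38, and its dimmer probe gave 0.17 and -0.044. Slc7a3, a carrier of cationic amino acids, was at 0.0050 and -0.23, and with median centring at -0.11 and -0.27. Vldlr, a lipoprotein and reelin receptor, was at -0.40 and 0.0068 (dimmer probe -0.13 and 0.22), and Stc2, a secreted glycoprotein, at -0.010 and -0.062. With median centring Stc2 was at 0.021 and 0.0022.

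The tRNA synthetases attach each amino acid to its tRNA, and the 12 members act in the cytosol. Their median was -0.12 for array 1 and 0.13 for array 2. With median centring the second turned to -0.11, and 9 of 12 lay below 0 on both arrays. The share of all genes below 0 on both arrays under that centring is given above. Of the 12, 7 lay below 0 on array 1 and above 0 on array 2, beside 28.7% of all genes, and 1 the other way, beside 27.8%. Those 7 were Aars, Gars, Lars, Iars, Tars, Sars and Mars. The largest of them was Gars, at -0.35 and 0.18, which encodes both the cytosolic and the mitochondrial glycine enzyme. Aars, the alanine enzyme, was at -0.29 and 0.14, Tars, the threonine enzyme, at -0.27 and 0.17, and Lars, the leucine enzyme, at -0.25 and 0.11. Iars, for isoleucine, was at -0.20 and 0.087, Mars, for methionine, at -0.095 and 0.16, and Sars, for serine, at -0.079 and 0.17. Over all tested probes the SD of the ratios was 0.20 for array 1 and 0.32 for array 2. On array 1, from 2.20% (Gars) to 30.4% (Sars) of all genes were at least as low as these 7. On array 2, from 25.6% (Gars) to 37.7% (Iars) of all genes were at least as high.

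Of the synthetases with the same sign on both arrays, Nars, the asparagine enzyme, was the one away from 0. Mutant against control, it read 11.06 and 10.85 on array 1, then 11.71 and 10.88 on array 2. Both mutant levels lay above both control levels, and that of array 2 was the highest. The ratios were 0.21 and 0.83, a mean of 0.52 ± 0.44, or 1.43-fold. The 4 spots on array 2 ranged from 0.63 to 0.95, and the 3 unflagged spots on array 1 from 0.12 to 0.27. With median centring the Nars ratios were 0.041 and 0.71, a mean of 0.37, with an unadjusted limma p of 0.12. Eprs, the joint enzyme for glutamate and proline, was at 0.096 and 0.029. Yars, for tyrosine, was at -0.15 on both arrays, and Cars, for cysteine, at -0.014 and -0.15. Wars, the tryptophan enzyme, was at 0.055 and -0.10 (dimmer probe 0.090 and -0.13).

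The 8 further cytosolic enzymes had medians of -0.027 and 0.17. Of the 8, 5 lay below 0 on array 1 and above 0 on array 2, beside 28.7% of all genes. In limma 0 passed the test (0 also at an unadjusted p under 0.05). Hars, the histidine enzyme, was at -0.031 and 0.80 (mean 0.39 ± 0.59), and Vars, the valine enzyme, at 0.10 and -0.45. The 17 mitochondrial enzymes, which are encoded by separate genes and charge the tRNAs of the organelle, had medians of -0.027 and 0.060. Of these, 2 lay above and 3 below 0 on both arrays, beside 22.1% and 21.4% of all genes. With median centring these counts were 1 and 9, beside the shares of all genes given above for that centring. In limma 0 passed, and 1 had an unadjusted p under 0.05. This was Vars2, at 0.58 and 0.29 (mean 0.44 ± 0.21), and Aars2 was at 0.10 and -0.51. The difference between these groups was not tested. Of 3 cofactors of the synthetase complex, Eef1e1 was at -0.15 and 0.38 and Aimp2 at -0.17 and -0.0041.

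**Figure D4:**
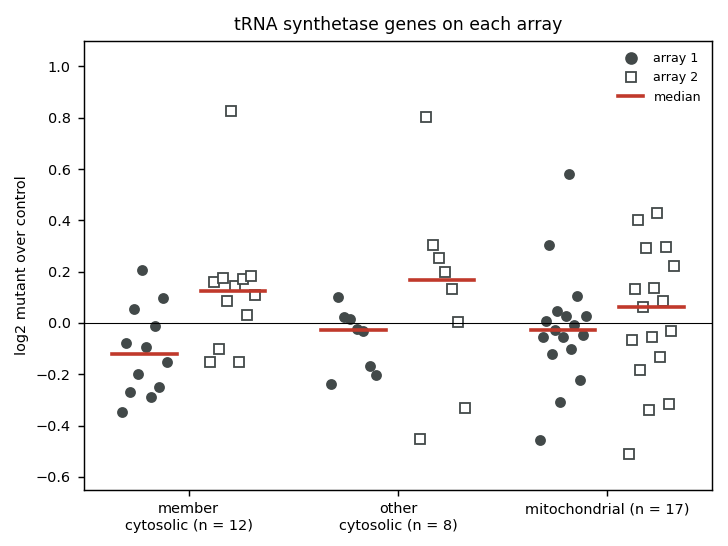
The log2 ratio of mutant over control (y axis) is plotted for each tRNA synthetase gene, 12 member cytosolic, 8 other cytosolic and 17 mitochondrial, with filled circles for array 1, open squares for array 2 and a red bar at each median. The medians lie below 0 on array 1 and above 0 on array 2 in all 3 sets after loess; with median centring all 3 lie below 0 on array 2 as well, at -0.11, -0.019 and -0.047.

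Further genes linked to the response were not called either. Of 19 regulators of the integrated stress response, 4 lay above and 7 below 0 on both arrays, beside 22.1% and 21.4% of all genes, 0 passed limma, and 1 had an unadjusted p under 0.05. With median centring 1 lay above and 10 below, beside 15.5% and 38.1% of all genes. Nupr1, a small stress-induced chromatin protein, was at 0.31 and 0.45 (mean 0.38 ± 0.099). Atf3, an immediate early and stress factor, was at -0.46 and -0.24 (mean -0.35 ± 0.15). Of 24 other amino acid, one-carbon and transport genes, 1 lay above and 8 below 0 on both arrays. The shares of all genes were 22.1% and 21.4%. In limma 0 passed, also at an unadjusted p under 0.05. With median centring the counts above and below 0 were 1 and 15, beside 15.5% and 38.1% of all genes. Slc43a1, a carrier of large neutral amino acids, was at 0.80 and 0.099, and Slc1a4, an exchanger of alanine, serine and cysteine, at 0.78 and -0.032. These high values were on the array on which Trib3 and Chac1 were high and on which liver and erythroid marker sums differed more, by 2.20 and 1.44; the part of those cells was not tested.

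The unfolded protein response of the endoplasmic reticulum, which meets the amino acid response at eIF2, had 16 tested genes. Of these, 3 lay above and 1 below 0 on both arrays, beside 22.1% and 21.4% of all genes. In limma 0 passed, and 0 had an unadjusted p under 0.05. Their medians were -0.020 and 0.060. With median centring 1 lay above and 7 below 0 on both arrays, beside the shares of all genes given above for that centring. The medians were then -0.081 and -0.13. Hspa5, the main chaperone of this compartment, was at 0.32 and 0.083, and Ern1, a sensor kinase, at 0.065 and -0.44.

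Of the 7 tested members with a CARE match, Chac1 was at 1.06 and -0.28, and the other 6, Asns, Vldlr, Pck2, Aars, Gars and Tars, lay between -0.40 and 0.017 on array 1 and between 0.0068 and 0.18 on array 2. With median centring 5 of these 6, all but Pck2, lay below 0 on array 2. The medians of the 7 after loess were -0.27 and 0.14. The 18 tested members whose promoter held no match had medians of -0.069 and 0.035. No test was made of this difference, and the absence of these letters in this window says nothing of sites elsewhere.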

How the data were processed

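RNA of 1 mutant and 1 control pool was compared on each of 2 two-colour arrays, from 150 ng of total RNA per the labels' protocols. Per the submitters' processing notes the scans were read by Agilent Feature Extraction 10.7.3.1; probe positions are on mm9, per the file headers. Mean and local background signals are intensity values without normalization, and the deposited processed signals are background-subtracted and dye-normalized, per the file headers. In the authors' deposited table each probe has 1 score, which by its values is a signed linear fold; how it was made was not known here. Against the processed signals its direction was mutant over control (r = 0.973 and 0.991), with column medians of 1 and an unknown centring.

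Signals were corrected by normexp (offset 50) and loess (span 0.3) in limma 3.58.1 under R 4.3.3. Outlier spots were left out (3.35% and 3.05%), spots of a probe averaged, and array 2 turned. A probe was tested if a share above 0.5 of its spots was well above background in the mutant or the control channel of both arrays (27493 of 39429). The brightest tested probe stood for a gene. RefSeq accessions (GRCm38.p6) gave the current name of 28328 probes. Ratios were tested against 0 with lmFit and eBayes over all 20923 genes, with Benjamini-Hochberg adjustment, a threshold of 0.05, 1 residual and 6.32 prior degrees of freedom. The p-values set a mean against a spread between 2 arrays, which differ in sex and dye. With 6.32 prior to 1 residual degrees of freedom, the spread used is mostly the prior shared by all genes, not the gene's own. Levels are loess and Aquantile values. The fit was tested on simulated data with independent arrays and the fitted prior spread, which says nothing of differences by sex or dye. Summed marker levels are log2 of linear levels less the offset.

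The text names every member, all other tested probes of members, and of each further list the 2 genes with the largest mean ratio, since none passed or was 1.5-fold changed on both arrays. Members and lists were chosen with earlier results of these data known.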

Additional observations from a re-analysis of the deposited data

Results flagged for a closer look

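For 3 members the arrays disagreed in direction and differed by at least 1 log2 unit, a size chosen after the values were seen. The ratio of Chac1 on array 1, labelled female, exceeded that on array 2, labelled male, by 1.34. The same difference was 1.05 for Trib3 and 1.004 for Atf4. With 1 array per sex and the dyes exchanged between them, a difference by sex was not tested and cannot be told apart from one by dye. In the limma fit with array 2 unturned, Atf4 and Chac1 had an adjusted p of 0.747.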

How the results depend on the processing

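The count of 0 called members in limma was the same under all 8 other settings, with 0 to 2 members at an unadjusted p under 0.05 and a lowest adjusted p of 0.860 after median centring. With median centring 3 members lay above and 20 below 0 on both arrays, and the median over members was -0.18. The cause was not tested. Counted on 1 array alone, 12 to 19 members lay above 0 and 13 to 20 below, and the median was -0.045 without array 2 and 0.050 without array 1, since most members have opposite signs. The mean ratio of 6 of 32 members turned sign after median centring, 2 with the processed signals, 1 with the mean of probes, 1 in the authors' table and 0 in the other settings that kept both arrays. Over all genes, 6 calls became 13 with the processed signals, 14 with an offset of 10 and 12 with probes above background in all channels. By limma 0 genes were called after median centring (853 at an unadjusted p under 0.05), 0 when dim probes were kept (1076) and 0 in a fit of the 4 single channels (530). The ratios within arrays are themselves paired, 1 mutant with 1 control pool, and the fit of the 4 single channels is the one that leaves the channels apart. All 32 tested members were well above background in all 4 channels; the number of arrays limits the precision. Stc2 was the dimmest, at 6.79 to 6.86, and its mean of -0.036 was -0.12 with the processed signals. The size of the Chac1 ratios also depended on the setting. They were 1.36 and -0.41 with the processed signals and 1.36 and -0.48 in the authors' table. With an offset of 10 they were 1.21 and -0.32, and with median centring 0.98 and -0.28.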
